A study of Mus musculus with 125 samples.

Results

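The Hox genes examined here are every gene whose symbol is Hoxa, Hoxb, Hoxc or Hoxd followed by a number in the gene table of the single-cell data, which gave 39 of 27998 genes. They lie in 4 clusters on 4 chromosomes of the mouse genome build mm10 (GRCm38). The Hoxa cluster holds 11 members at chr6:52155367-52260880, and the Hoxb cluster holds 10 at chr11:96194316-96368254. The Hoxc cluster holds 9 at chr15:102921131-103036856, and the Hoxd cluster holds 9 at chr2:74668225-74765142. Each gene was followed over its body plus 5 kb on either side, called its window below. Of the 39 windows, 34 overlap the window of a neighbour, so the members are not independent of each other.

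Hox genes encode homeodomain transcription factors that set position along the head to tail axis of the embryo. Within a cluster the genes at the 3′ end (low numbers) are switched on early and reach furthest towards the head, and those at the 5′ end (high numbers) are used later and further back. Cells of an organ often keep the Hox pattern of the level at which they arose, and brain rostral to the hindbrain lies in front of the Hox domain.

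The study profiled open chromatin by ATAC-seq, in which a transposase cuts accessible DNA, in vessel cells of mouse organs at 3 ages. Vessels carried a tamoxifen-induced GFP reporter, and the labels do not name the strain or the driver of the recombinase. Embryos labelled E12 received tamoxifen at E10.5 and were collected at E12.5. Pups labelled P6 received it at postnatal days 1 and 3 and were collected at day 7, and adults of 2 months received it 7 days before collection. Endothelial libraries came from brain, heart and trunk at E12 (3, 4 and 4 libraries) and from 6 organs after birth. These were brain and retina (3 libraries each at P6), heart, lung, liver and kidney (2 each at P6), with 2 of each in the adult. Input libraries, 29 against 37 endothelial ones, hold nuclei of the same tissues without the selection for GFP. Droplet single-cell RNA libraries of cells enriched with anti-CD31 beads, 1 per age, cover brain at E9.5 and E12.5 and the cortex at P8 and in the adult. The labels do not say whether replicates came from separate animals or pools, so p-values measure the spread between these libraries only. Brain and retina are called head organs below, and heart, lung, liver and kidney trunk organs. That grouping is a reading of the organ names and not a label of the study.

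The clusters also carry microRNAs that sit between the Hox genes. They are shown because the miR-10 and miR-196 families sit at matching places in several clusters and are known to target Hox messages. The mature sequences are from RefSeq (GRCm38), 5′ to 3′, with the seed (bases 2 to 8) in capitals.

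mmu-miR-10a-5p, in the Hoxb cluster: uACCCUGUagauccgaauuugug
mmu-miR-10b-5p, in the Hoxd cluster: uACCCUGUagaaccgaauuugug
mmu-miR-196a-5p, in the Hoxb and Hoxc clusters: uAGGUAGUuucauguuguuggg
mmu-miR-196b-5p, in the Hoxa cluster: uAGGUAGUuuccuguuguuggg
mmu-miR-615-3p, in the Hoxc cluster: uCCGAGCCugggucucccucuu

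The miR-10 pair shares 1 seed and the miR-196 pair another. Within 1 kb of Mir10b, whose miR-10b-5p lies at chr2:74726074-74726096, a peak was present in 3 of 3 E12 brain, 2 of 4 E12 heart and 4 of 4 E12 trunk endothelial libraries and in no postnatal endothelial library. Mir196a-1 in the Hoxb cluster (mature sequence at chr11:96265187-96265208) had one within 1 kb in 3 E12 trunk libraries and in both P6 kidney libraries. Mir10a (chr11:96317186-96317208) had one in 1 E12 brain library, and the Hoxc copy Mir196a-2 in none.

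Promoter sequence was matched for 22 of the 39 genes, in 24 windows running from 250 bases before to 50 bases after a start site (RefSeq, GRCm38.p6). The 4 printed here carry the differences described below. Hoxa5 separated trunk from head organs, Hoxd8 was covered postnatally in kidney, Hoxa13 postnatally in retina, and Hoxa2 holds a motif of the kind bound by a Hox protein with its Pbx partner. Capitals mark CpG dinucleotides in the Hoxa5, Hoxa13 and Hoxd8 sequences and the motif in Hoxa2.

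Hoxa5 promoter, chr6:52204538-52204837, minus strand: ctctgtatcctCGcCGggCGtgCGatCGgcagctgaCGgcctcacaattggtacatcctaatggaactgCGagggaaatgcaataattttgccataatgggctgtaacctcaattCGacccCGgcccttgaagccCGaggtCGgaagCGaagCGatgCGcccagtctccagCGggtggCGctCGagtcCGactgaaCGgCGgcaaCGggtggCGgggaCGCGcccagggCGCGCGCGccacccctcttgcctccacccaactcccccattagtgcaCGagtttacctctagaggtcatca
Hoxd8 promoter, chr2:74704365-74704664, plus strand: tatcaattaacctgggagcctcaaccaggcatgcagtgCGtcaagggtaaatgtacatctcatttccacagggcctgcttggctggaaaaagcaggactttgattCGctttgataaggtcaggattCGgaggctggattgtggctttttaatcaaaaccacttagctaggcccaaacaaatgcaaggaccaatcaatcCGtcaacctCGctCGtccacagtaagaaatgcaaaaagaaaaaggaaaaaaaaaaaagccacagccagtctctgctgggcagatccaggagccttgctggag
Hoxa13 promoter, chr6:52260831-52261130, minus strand: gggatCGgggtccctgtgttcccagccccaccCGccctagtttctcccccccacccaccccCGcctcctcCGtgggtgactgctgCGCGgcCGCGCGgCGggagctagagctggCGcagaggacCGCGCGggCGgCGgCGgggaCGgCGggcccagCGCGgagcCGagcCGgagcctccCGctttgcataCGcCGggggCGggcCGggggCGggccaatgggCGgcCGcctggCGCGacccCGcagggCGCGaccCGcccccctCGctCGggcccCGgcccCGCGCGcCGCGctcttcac
Hoxa2 promoter, chr6:52164782-52165081, minus strand: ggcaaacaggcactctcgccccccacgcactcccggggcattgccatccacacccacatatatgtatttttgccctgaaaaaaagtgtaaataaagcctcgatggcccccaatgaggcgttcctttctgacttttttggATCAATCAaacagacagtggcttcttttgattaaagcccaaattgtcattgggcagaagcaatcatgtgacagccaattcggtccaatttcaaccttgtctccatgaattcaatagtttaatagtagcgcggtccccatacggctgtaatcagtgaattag

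The Hoxa5 promoter holds 29 CpG dinucleotides, that of Hoxa13 45 and that of Hoxd8 6. Over the 24 Hox windows the median was 14.5, against 7 over all 32851 promoter windows in the table. The motif TGATTNAT, searched on both strands, was found in 2 of the 24 windows (Hoxa2 and Hoxd11; 8.33%) and in 3.22% of all windows. A match of letters is a description and not evidence of binding.

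A peak covered the Hoxa5 promoter in all 16 postnatal trunk libraries, in 0 of 10 postnatal head libraries and in all 11 E12 libraries. The Hoxd8 promoter was covered in both kidney libraries at P6 and in both in the adult, in no other postnatal endothelial library, and in 3, 2 and 4 of the E12 brain, heart and trunk libraries. The Hoxa13 promoter was covered postnatally in 2 of 3 P6 retina libraries and in no other organ. The Hoxa2 promoter was covered in few libraries: 2 of P6 lung and 1 each of P6 heart, P6 liver, adult liver and E12 trunk.

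The measure used for a gene is its covered percent, the share of its window lying under the authors' peaks in 1 library. It records where a peak was called and not how much RNA was made. A lower value can mean fewer nuclei with the region open or less opening in each, which cannot be told apart in bulk nuclei. The 66 peak lists held 19464 to 144197 peaks from 10139069 to 59082479 tags. The mean covered percent over 21631 protein-coding windows in endothelial libraries was 4.66 at E12, 3.39 at P6 and 2.19 in the adult, so coverage of all genes was lower at later ages in these lists. Endothelial library 3 of E12 heart held 39096 peaks against 101219 to 120456 in the other E12 heart libraries, and library 1 of P6 brain held 27160 against 79903 and 87133 in the others. The alignment files named in the peak headers have 4 kinds of name ending that follow the organs closely. The E12 brain, heart and trunk endothelial lists each have an ending of their own. After birth kidney and liver endothelium share an ending, and heart and lung endothelium each have another. Tissue and ending therefore cannot be told apart between the E12 tissues, or between kidney and heart or lung. Whether the endings mark different read processing is not given in the sources used here, and a comparison within 1 ending is given where libraries allow it. Every one of the 39 genes had a peak in its window in some endothelial and some input library, against 1649 of the 21631 windows with none in any library.

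Hoxa and Hoxb chromatin was more open in trunk than in head endothelium at P6, and Hoxc and Hoxd chromatin was not called different. The Hoxa cluster was covered to 0.285%, 1.12% and 0.922% in the 3 P6 brain libraries and to 3.14%, 2.93% and 2.79% in the 3 retina libraries. The trunk values were 4.50% and 6.47% in heart, 7.43% and 6.13% in lung, 6.18% and 4.21% in liver and 8.56% and 5.75% in kidney. Every trunk library lay above every head library, and retina lay between brain and the trunk organs. The trunk mean was 6.15% ± 1.42 (SD, n = 8) against 1.86% ± 1.23 (n = 6), with p = 0.000666 by an exact permutation test, two-sided, the smallest value that 8 against 6 libraries allow (adjusted p = 0.00533 over 16 cluster tests). The test exchanged single libraries, although libraries of 1 organ are not independent of their organ. This p therefore does not measure the spread between organs, and the head to trunk p-values below have the same limit.

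The Hoxb cluster followed the same order at P6. It was covered to 0%, 0.173% and 0.231% in brain and to 0.821%, 1.16% and 0.629% in retina. The trunk values were 3.06% and 2.95% in heart, 4.90% and 3.99% in lung, 4.16% and 2.26% in liver and 5.96% and 3.10% in kidney. Again the groups did not overlap, with means of 3.80% ± 1.2 (SD, n = 8) and 0.503% ± 0.444 (n = 6) and the same exact permutation p of 0.000666.

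The organ order was in part that of the unselected input nuclei. At P6 the Hoxa cluster of input was covered to 1.32% ± 0.627 (SD, n = 3) in brain, 3.52% ± 1.31 (n = 3) in retina, 3.67% ± 0.285 (n = 2) in heart, 2.57% ± 1.88 (n = 2) in liver, 6.75% ± 0.426 (n = 3) in lung and 7.99% ± 1 (n = 3) in kidney. Hoxb input means were 0.313% in brain, 1.131% in retina, 0.999% in heart, 0.605% in liver, 3.605% in lung and 5.50% in kidney. Lung and kidney were thus high in input too, while heart and liver input lay near retina input. Whether the head to trunk difference is particular to endothelium was not tested.

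The Hoxc and Hoxd clusters did not separate head from trunk. Hoxc was covered to 0.567% ± 0.591 (SD, n = 8) in trunk and 0.714% ± 0.566 (n = 6) in head organs (exact permutation p = 0.636). Hoxd was covered to 2.79% ± 2.42 and 2.62% ± 1.60 (exact permutation p = 0.893). Within the trunk, Hoxd was high in kidney (6.94% and 3.85%) and heart (3.57% and 4.88%), low in lung (1.49% and 1.08%) and near 0 in liver (0.488% and 0%). With only the libraries of 1 name ending, lung against brain 1 and 2 and retina, the differences at P6 were 4.73 percentage points for Hoxa and 3.89 for Hoxb, where 2 against 5 libraries allow no exact permutation p under 0.0952. With every list cut to its 19464 peaks of highest -log10 p, the Hoxa difference was 2.06 percentage points (adjusted p = 0.170) and the Hoxb difference 0.384 (adjusted p = 0.313, exact permutation tests), so neither kept its call.

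**Figure D1:**
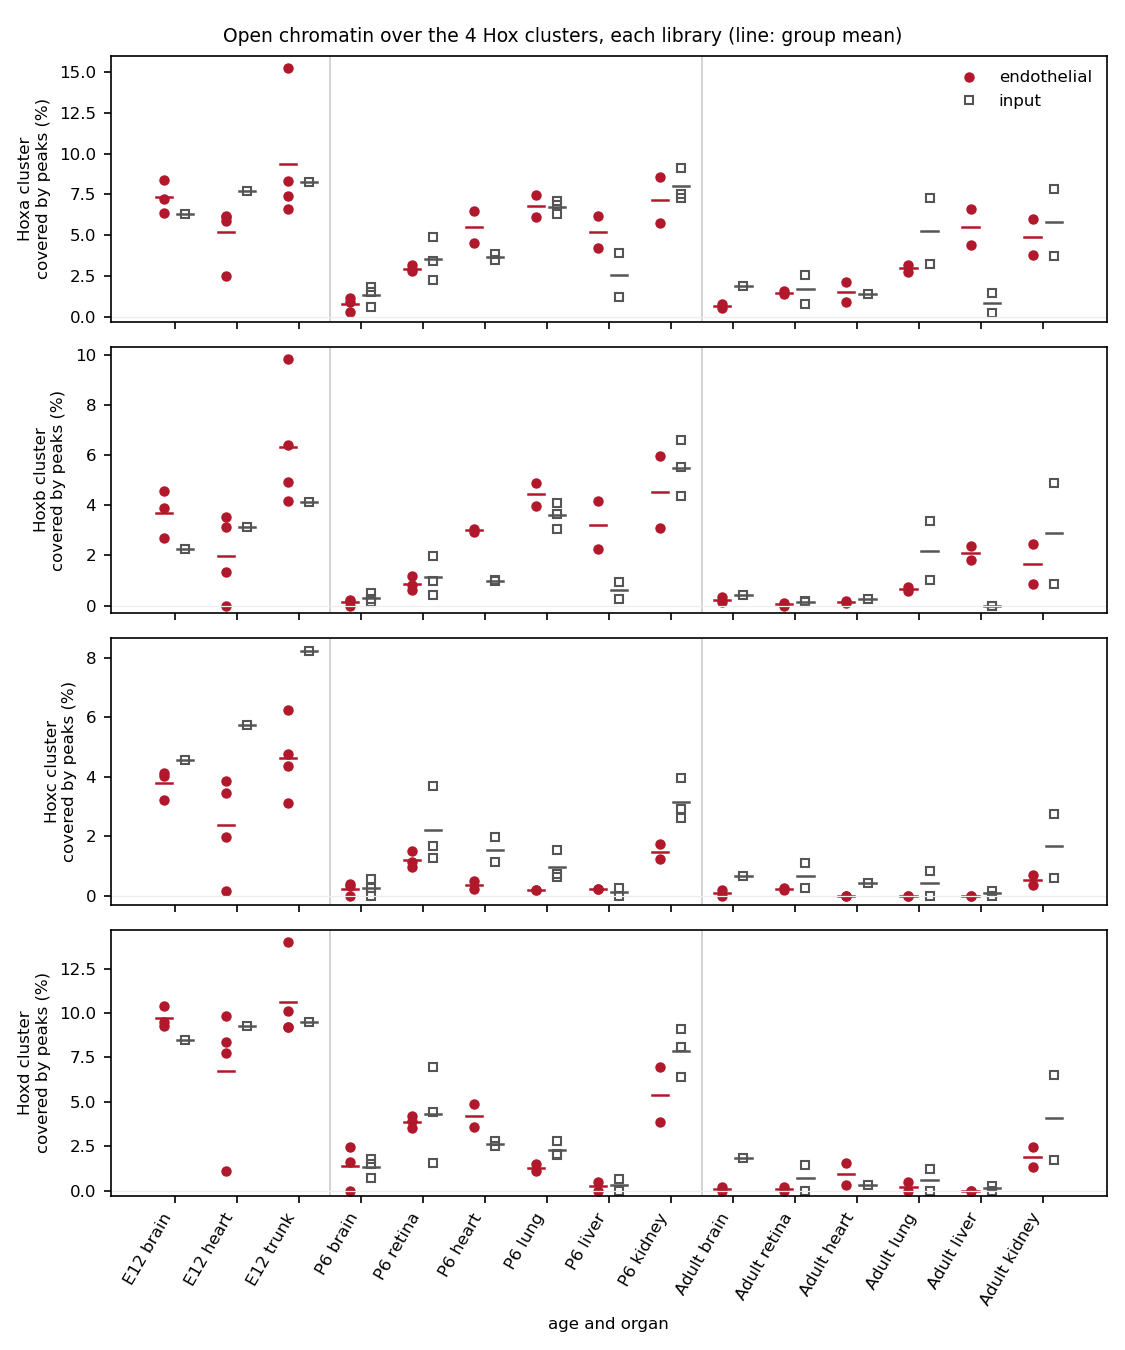
Covered percent of each Hox cluster (first to last base plus 5 kb on either side) in each ATAC-seq library, with 1 panel per cluster and the organs of each age along the horizontal axis. Each point is 1 library, filled circles for endothelial and open squares for input, and lines give group means. At P6 the endothelial Hoxa and Hoxb points of heart, lung, liver and kidney all lie above those of brain and retina. At E12 the endothelial Hoxd values of brain, 9.27% to 10.4%, lie within those of trunk, 9.20% to 14%.

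Gene by gene, 12 of the 39 members were higher in P6 trunk than head endothelium, against 0.282% of all 21631 windows called higher. A member was called where limma's adjusted p over all windows was under 0.05 and the difference at least 5 percentage points, with the organs weighted equally. None was called lower, against 0.55% of all windows. The median difference over the 39 members was 1.16 percentage points, against -0.0447 over all windows. For 18 genes that mark endothelium the median difference was 1.39, and 2 were called higher in P6 trunk endothelium (limma), Egfl7 (21.2% against 14.4%) and Sox17 (16.3% against 9.80%). The part of endothelial content in the Hox differences was not tested. The called members included Hoxa2 to Hoxa6 and Hoxb2 to Hoxb7, runs of neighbours, with differences from 5.06 (Hoxb2) to 11.1 percentage points (Hoxb4). No member with a number above 7 and none of Hoxc or Hoxd was called. With every list cut to equal peak number 2 members were called higher, against 0.809% of all windows called in either direction, and with only peaks of -log10 q of at least 5, 6 were, against 0.726%.

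Hoxa6 had the largest difference called in the Hoxa cluster. Its window was covered to 0%, 1.97% and 2.00% in P6 brain and to 3.66%, 5.41% and 3.58% in P6 retina. In the trunk organs it was covered to 9.50% and 17.2% in heart, 15.2% and 9.92% in lung, 12.4% and 7.70% in liver and 15.2% and 10.2% in kidney. All trunk values lay above all head values. The organ means were 12.2% and 2.77%, a difference of 9.40 ± 1.54 percentage points (SE; limma adjusted p = 6.56e-05).

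Hoxb4 had the largest difference of any member. It was at 0% in all 6 P6 head libraries and covered to 9.71% and 9.03% in heart, 16.7% and 12.9% in lung, 14.1% and 6.15% in liver and 13.4% and 6.45% in kidney. The means were 11.1% and 0%, a difference of 11.1 ± 1.2 percentage points (SE; limma adjusted p = 7.94e-08). The peak region over the body, chr11:96318190-96320173, was present in 12 of the 16 postnatal trunk libraries, in 0 of 10 postnatal head libraries and in 10 of 11 E12 libraries.

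Hoxa2, a member with roles in hindbrain patterning, had the same pattern. It was covered in P6 brain to 0%, 2.54% and 0% and in retina to 8.79%, 2.55% and 1.88%. The trunk organs ran from 9.15% (liver) to 13.7% (heart), above every head library. The difference was 9.20 ± 1.16 percentage points (SE; limma adjusted p = 1.13e-06).

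In the adult the same direction was seen with less coverage. The Hoxa cluster was covered to 0.562% and 0.788% in brain and 1.39% and 1.55% in retina. It was covered to 0.926% and 2.15% in heart, 3.19% and 2.73% in lung, 4.39% and 6.58% in liver and 3.81% and 6.01% in kidney. Only heart overlapped the head organs. Hoxb was covered to 1.14% ± 0.938 in trunk and 0.149% ± 0.137 in head organs (exact permutation p = 0.0283, adjusted 0.0762). The Hoxa means were 3.72% ± 1.91 (SD, n = 8) and 1.07% ± 0.472 (n = 4), with exact permutation p = 0.0121 and adjusted p = 0.0646, which did not pass the threshold. Scaled to equal mean coverage the difference was 5.07 (exact permutation, adjusted p = 0.0431) against 2.65 unscaled. Without library 1 of adult heart the Hoxa difference was 3.05 percentage points (exact permutation, adjusted p = 0.0323) and the Hoxb difference 1.14 (adjusted p = 0.0485), and both passed. These were the only ones of 12 such fits that did: the adjusted p ran up to 0.116 for Hoxa and 0.171 for Hoxb with other libraries left out (exact permutation).

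Of the 39 members, 3 were called higher in adult trunk than head endothelium, against 0.074% of all windows, and none lower, against 0.763%. They included Hoxa2 and Hoxa5, and both were at 0% in the 4 adult head libraries. Hoxa2 was covered to 1.61% and 2.30% in heart, 7.70% and 7.10% in lung, 11.1% and 16.6% in liver and 5.65% and 10.7% in kidney, with a mean of 7.84% and an SE of 1.32 (limma adjusted p = 0.000299). Hoxa5, a member with roles in lung and axial patterning, averaged 6.68% (limma adjusted p = 0.00763). With each library scaled to equal mean coverage 9 members were called higher, against 2.43% of all windows called in either direction. With lung against retina alone, which share a name ending, 0 were called, against 1.05% (limma; 12 at an unadjusted p under 0.05).

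The head to trunk difference was not called different between P6 and the adult for any member (limma interaction). No window of any gene was called larger at P6 (0%), 0.00925% were called smaller, and 5 members had a larger P6 difference at an unadjusted p under 0.05. Hoxb4 had a difference 6.70 ± 1.82 percentage points larger at P6 (limma adjusted p = 0.220). Without library 2 of P6 liver, or over the gene bodies alone, 1 member was called.

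**Figure D2:**
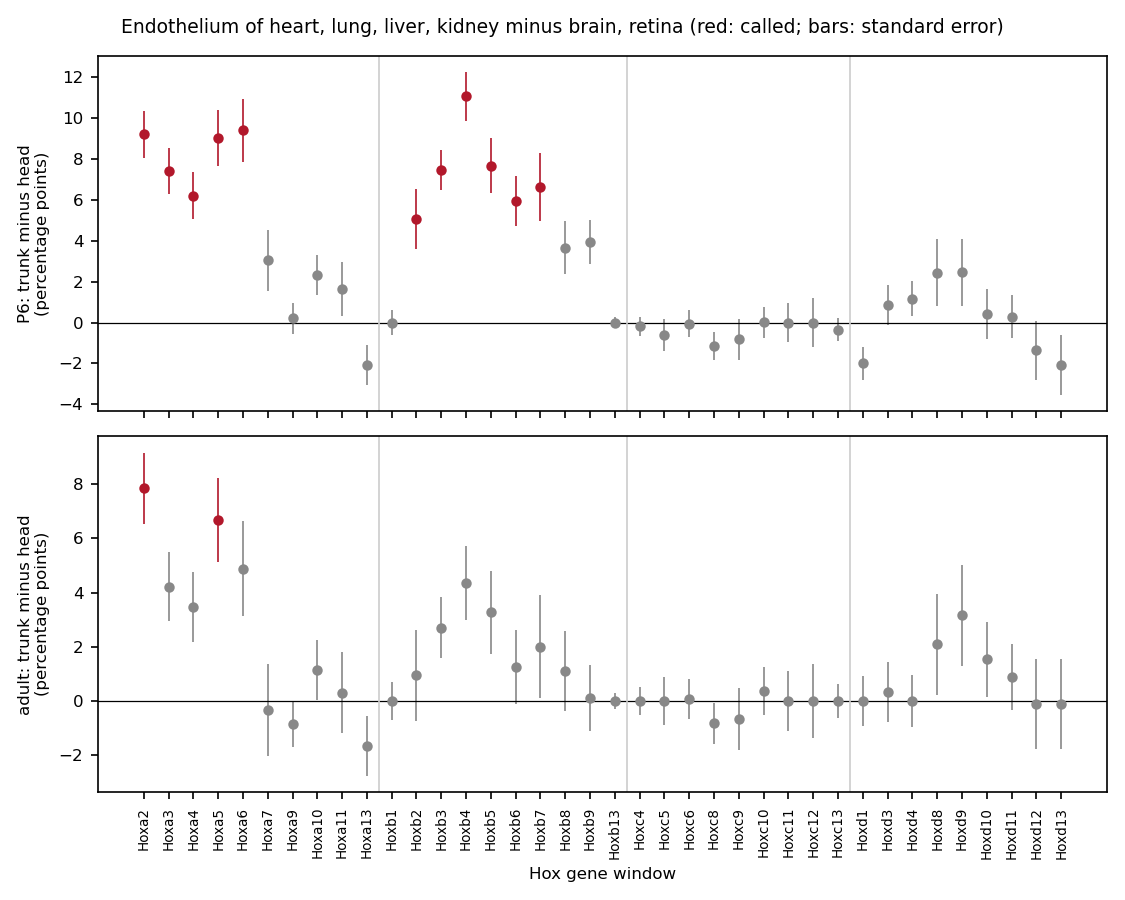
Difference in covered percent of the window of 38 of the 39 Hox genes between trunk organs (heart, lung, liver, kidney) and head organs (brain, retina), in percentage points with its standard error from limma, at P6 and in the adult. Red points were called, 11 of those drawn at P6 and 2 in the adult, and they lie in the Hoxa and Hoxb clusters.

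Overlapping peaks of the 37 endothelial lists were merged into 34 regions at Hoxa, 42 at Hoxb, 19 at Hoxc and 28 at Hoxd. In postnatal trunk lists 21 of the Hoxa and 28 of the Hoxb regions were present, and in postnatal head lists 10 and 7. For Hoxc both numbers were 7, and for Hoxd they were 15 and 14. Trunk organs gave 16 postnatal lists and head organs 10, so the counts are not on equal terms.

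At Hoxa3 the regions chr6:52170553-52171236 and chr6:52172428-52173070 were present in 15 and 16 of 16 postnatal trunk lists and in 0 of 10 head lists. The region chr6:52203190-52204879 over the Hoxa5 promoter was in 16 trunk lists and in 1 head list, from P6 retina. At Hoxb3 the region chr11:96314523-96315610 was in 15 trunk lists, 0 head lists and 3 of 11 E12 lists. One region, chr6:52221299-52222284 of 986 bases between Hoxa7 and Hoxa9, overlaps no member and was present in all 37 endothelial lists, brain included.

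The number of genes with a peak in their body in every library of a group differed between organs. In the adult there was 1 such gene in brain and 1 in retina, in both cases Hoxa3, whose annotated body spans that of Hoxa5. Lung had 4, among them Hoxa3, Hoxa5 and Hoxb3, and heart had 5, the same 4 and Hoxd3. Liver had 7, among them Hoxa3, Hoxa5, Hoxb2, Hoxb3, Hoxb4 and Hoxb7, and none with a number above 7. Kidney had 14, among them Hoxa9, Hoxa10, Hoxb9, Hoxc6, Hoxd8 and Hoxd10. At P6 the counts were 0 in brain, 10 in retina, 8 in liver, 14 in lung, 17 in heart and 19 in kidney, and at E12 they were 22 in brain, 7 in heart and 22 in trunk. These counts were not tested, and lists with more peaks can give more such genes. The counts also fall with more libraries, of which a group had 2 to 4, and with 1 short list. Genes with a body peak in any library numbered 32 in brain, 33 in heart and 38 in trunk at E12. At P6 they numbered 10 in brain, 18 in retina, 13 in liver, 18 in lung, 20 in heart and 24 in kidney.

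The order of the organs differed between the ends of the Hoxa cluster. Over the window of Hoxa2, adult liver averaged 13.9%, kidney 8.16%, lung 7.40% and heart 1.95%, and retina and brain were at 0%. Over Hoxa9 to Hoxa13 the adult values were 2.80% in kidney, 2.09% in retina, 1.2% in liver, 0.974% in brain, 0.627% in heart and 0.449% in lung. In adult brain, heart and lung no peak region overlapped the body of any of these genes. Their values come from chr6:52221299-52222284 in the flank of Hoxa9, the region present in all 37 endothelial lists. In adult retina and in adult liver, chr6:52240010-52240900 at Hoxa10 was the only region over a body of these genes, in 1 library each. Both adult retina libraries also held chr6:52256981-52257427, which overlaps no member. Liver thus had the highest mean for Hoxa2, and kidney and retina the highest for the windows of the 5′ genes. The retina value rests in part on regions that overlap no member. With 2 libraries each, ranges of 1.98% to 3.62% in kidney and 0.553% to 1.84% in liver did not overlap for the 5′ genes, while retina at 1.89% to 2.29% overlapped kidney.

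**Figure D3:**
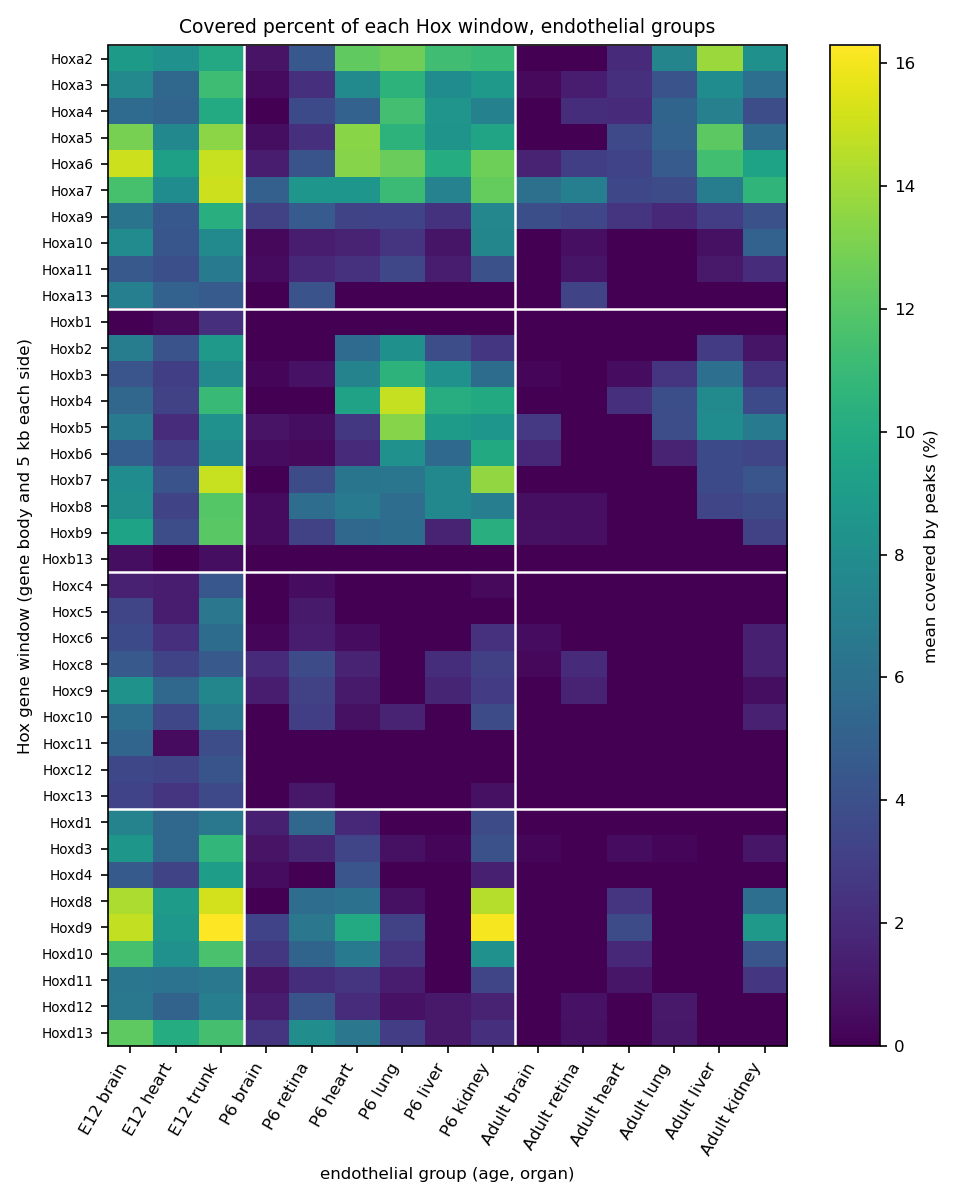
Mean covered percent of the window of 38 of the 39 Hox genes in each endothelial group (age and organ), with the color bar giving the percent. Embryonic groups are covered across all 4 clusters. Of 39 windows, adult brain has 27 with no peak, adult retina 25, heart and lung 24 each, liver 22 and kidney 12. Postnatal liver is covered at Hoxa2 to Hoxa5 and at 0% at Hoxd8 and Hoxd9.

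Kidney endothelium stood out for Hoxd8 and Hoxd9, central Hoxd genes that are active in the posterior trunk and limbs. Hoxd8 was covered to 20.6% and 8.35% in P6 kidney, 4.02% and 8.24% in heart, 0% and 1.5% in lung and 0% in both liver libraries. Both kidney values exceeded all other trunk values at P6. In the test of kidney against heart, lung and liver, these 2 members were the only windows called higher among all genes, which is 0.00925% of all windows. Kidney shares its alignment name ending with liver and not with heart or lung. Hoxd8 differed by 12.2 ± 2.48 percentage points (SE; limma adjusted p = 0.0293). Hoxd9, covered to 20.1% and 12.1% in kidney, 8.14% and 11.8% in heart, 2.77% and 3.63% in lung and 0% in both liver libraries, differed by 11.7 ± 2.49 (limma adjusted p = 0.0425). The call rests on few libraries: no member was called without kidney 1, heart 1 or lung 1, 1 without lung 2 and 4 without kidney 2. With libraries scaled to equal mean coverage 9 members were called higher, against 0.254% of all windows called in either direction, and with the highest fold in place of the covered percent 0 were, against 0.582%.

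The same genes were covered in unselected kidney nuclei. Hoxd8 in P6 kidney input was covered to 13.5%, 15.4% and 13.8%, and Hoxd9 to 15.8%, 17.7% and 18.2%, all within the endothelial range. No member was called higher in kidney endothelium than in its input at P6 or in the adult (limma; none was higher at an unadjusted p under 0.05, and 4 at P6 and 3 in the adult were lower at that level). Without library 1 of adult kidney input 4 members were called lower in endothelium, and without library 3 of P6 kidney input 1 was. Of all windows 0.0555% and 0.00462% were called higher and 0.439% and 0.453% lower. The part of other kidney cells in the endothelial values was not tested.

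In the adult no member was called between kidney and the other trunk organs by limma, against 0.00462% of all windows called higher, and 4 were higher at an unadjusted p under 0.05. Scaled to equal mean coverage 8 members were called higher, against 0.906% of all windows called in either direction. Hoxd8 was covered to 4.53% and 7.37% in kidney, 0% and 4.84% in heart and 0% in lung and liver. Hoxd9 was covered to 4.84% and 12.8% in kidney and 0% and 7.59% in heart. Hoxa10 was at 3.13% and 7.16% in kidney and at 0% in heart, lung and brain, and it was covered to 10.7% and 4.27% in P6 kidney. Hoxc6 (1.06% and 1.78%) and Hoxc10 (1.32% and 1.62%) had low values in adult kidney.

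Liver endothelium was the opposite at Hoxd, and so was liver input. Hoxd cluster means were 0.244% (P6) and 0% (adult) in liver endothelium and 0.319% and 0.126% in liver input. Adult lung, brain and retina endothelium were also low, at 0.230%, 0.0945% and 0.0935%. Hoxd8, Hoxd9 and Hoxd10 were at 0% in all 4 postnatal liver libraries, while Hoxa2 was covered to 13.4% and 9.15% at P6 and to 11.1% and 16.6% in the adult. Among the organs tested against their own input (liver, kidney and retina), calls were made in liver. Adult liver input had Hoxa2 at 0% and 4.00%, Hoxa5 at 0% and 2.74% and Hoxb4 at 0% in both libraries, against 11.1% and 16.6%, 9.51% and 14.8%, and 6.01% and 9.44% in endothelium. All endothelial values lay above all input values. P6 heart, which was not tested by itself, had a like gap: Hoxb4 was at 0% in both input libraries against 9.71% and 9.03% in endothelium, and Hoxa5 at 1.91% and 3.83% against 12% and 14.8%.

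The liver test gave 4 members called higher in adult liver endothelium than input, against 0.888% of all windows, and none lower, against 0.351%. Hoxa2 differed by 11.8 ± 2.15 percentage points (SE; limma adjusted p = 0.000673). Hoxb4 differed by 7.73 ± 2.23 (limma adjusted p = 0.0459). Hoxa5 differed by 10.8 ± 2.53 (limma adjusted p = 0.00984). At P6 none was lower (0.689% of all windows) and 1 was higher (0.342%). This was Hoxb3, with means of 8.24% and 1.91% and a difference of 6.33 ± 1.83 (limma adjusted p = 0.0446). The comparisons by organ were chosen after the values were seen. The adult count fell to 1 without endothelial library 2 and to 2 without input library 1, and the P6 count was 0 without endothelial library 1 or either input library and 4 without endothelial library 2. Scaled to equal mean coverage 10 members were called higher at each age, against 7.75% (adult) and 3.71% (P6) of all windows called in either direction. With only peaks of -log10 q of at least 5 the counts were 1 in the adult, against 1.22%, and 0 at P6, against 0.744%.

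Over all 6 organs, no member was called higher or lower in endothelium than in input by limma. With log2 of 1 plus the highest fold in the window, 1 was called higher and 2 lower at P6, and 1 and 2 in the adult, against 8.1% of all windows called at P6 and 9.09% in the adult, and over the gene bodies 2 were called higher at P6, against 2.02%. In covered percent, at P6 0.0832% of all windows were higher and 0.143% lower, and 5 members were higher and 4 lower at an unadjusted p under 0.05. In the adult 0.0277% were higher and 0.0601% lower, with 0 and 2 members at that level. Of 18 genes that mark endothelium, 3 at P6 and 2 in the adult were called higher in the endothelial libraries by the same fit, so the measure gave few calls even for defining genes. At E12 3 of the 18 were higher, among them Egfl7, a vessel-secreted factor, at 20.7% against 6.20%.

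Retina endothelium was covered in the windows of the most 5′ genes of Hoxa and, at P6, of Hoxd. Hoxa13, the most 5′ Hoxa member, was covered in P6 retina to 1.78%, 5.21% and 5.49% and in adult retina to 3.59% and 3.05%, and was at 0% in every other postnatal endothelial library. The region over its body, chr6:52260044-52261090, was in 2 P6 retina libraries and in 0 adult ones. The adult values come from chr6:52256981-52257427, which overlaps no member. Hoxd13 was covered in P6 retina to 8.41%, 6.23% and 9.40%, against 4.35% and 8.60% in P6 heart, 0%, 3.71% and 3.82% in P6 brain and 1.49% and 0% in adult retina, so retina and heart overlapped. The region over the Hoxd13 body, chr2:74667967-74668953, was also in 1 P6 kidney and 1 P6 lung library. Over Hoxd9 to Hoxd13 together, P6 kidney (6.31%) and P6 heart (5.52%) had higher means than P6 retina (5.21%). Hoxd1, at the other end of that cluster, was covered in P6 retina to 4.46%, 6.35% and 5.38%. The retina input had Hoxa13 at 1.66%, 2.82% and 3.63% at P6. Retina endothelium was not called different from its input for any member (limma). At an unadjusted p under 0.05 there were 0 higher and 3 lower at P6 and 0 either way in the adult, and of all windows 0.153% were called higher and 0.0693% lower at P6 and 0.00462% and 0% in the adult. A test of retina against brain endothelium was not run.

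The end members of Hoxb and Hoxc had few peaks after birth. Hoxb1 had a peak in 3 endothelial libraries (1.60% in E12 heart 1, 3.93% and 4.74% in E12 trunk 3 and 4), and Hoxb13 in 2 (1.82% in E12 brain 2 and 2.31% in E12 trunk 4). Hoxc4 was covered in E12 trunk to 1.93%, 4.99%, 5.41% and 5.23% and postnatally in 1 P6 kidney and 1 P6 retina library. Hoxc13 was covered in 10 of 11 E12 libraries and in 3 P6 libraries. Hoxd1 was at 0% in all 12 adult libraries. Hoxc11 and Hoxc12 were at 0% in every postnatal group, with E12 brain means of 5.28% and 3.54%, and Hoxc5 had a postnatal peak in 1 library, of P6 retina. Hoxc8 and Hoxc9 were highest after birth in P6 retina, at 3.78% and 3.16%, and next in P6 kidney, at 3.09% and 2.82%. Hoxd11 and Hoxd12 did not exceed 4.24% in any postnatal group mean, and Hoxa11 did not exceed 4.03%.

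At E12 the clusters were covered in every organ, brain included. Hoxd was covered to 9.27%, 10.4% and 9.47% in brain endothelium and to 9.23%, 9.20%, 10.1% and 14% in trunk. Hoxa was covered to 6.37%, 8.37% and 7.21% in brain and to 8.33%, 6.58%, 7.38% and 15.3% in trunk. Brain and trunk overlapped in both clusters. The exact permutation p was 0.914 for Hoxd and 0.457 for Hoxa, where 4 against 3 libraries allow none under 0.0571. Without trunk library 4 the Hoxa difference fell from 2.07 to 0.115 percentage points. For Hoxb the means were 6.34% ± 2.5 (SD, n = 4) and 3.71% ± 0.958 (n = 3; exact permutation p = 0.114), and for Hoxc 4.62% ± 1.28 and 3.79% ± 0.497 (p = 0.343 by the same exact test).

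Gene by gene, no member was called between E12 trunk and brain by limma, with 12 higher in trunk at an unadjusted p under 0.05. Of all windows 0% were called higher and 0.268% lower. The median difference of the members was 1.46 percentage points, against -0.600 over all windows. Hoxb7, for example, was covered to 9.55%, 11.9%, 15.8% and 22.5% in trunk and to 8.58%, 9.41% and 5.80% in brain, all trunk values above all brain values. Over the gene bodies alone 4 members were called higher, against 0.582% of all windows called in either direction. The label of the brain samples does not say whether hindbrain, which expresses Hox genes, was included.

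E12 heart had the lowest mean of the 3 embryonic tissues in every cluster, and its short library 3 was the lowest heart library in all 4. Hoxb was covered to 3.13%, 3.53%, 0% and 1.33% in heart and to 4.94%, 4.19%, 6.42% and 9.83% in trunk, without overlap. The exact permutation p was 0.0286, the smallest that 4 against 4 libraries allow, and 0.0762 after adjustment. Hoxa averaged 9.39% ± 3.98 (SD, n = 4) in trunk and 5.16% ± 1.76 (n = 4) in heart, with the same p values by exact permutation. Without trunk library 4 the Hoxa difference fell from 4.22 to 2.27 percentage points.

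Of the members, 11 were called higher in E12 trunk than heart, against 0.129% of all windows, and none lower, against 0.19%. Hoxb7 was covered to 5.47%, 8.51%, 0% and 2.72% in heart, below every trunk library, and differed by 10.8 ± 2.19 percentage points (SE; limma adjusted p = 0.00285). Hoxd9 differed by 7.58 ± 2.15 (limma adjusted p = 0.048), Hoxa7 by 7.13 ± 1.95 (adjusted p = 0.038) and Hoxc5 by 5.18 ± 1.02 (adjusted p = 0.00204). The calls fell in all 4 clusters. Each E12 tissue had its own alignment name ending, so tissue and ending cannot be told apart here or between heart and brain. Without heart library 3 the count was 4, and without trunk library 4 it was also 4. It was 2 with lists cut to equal peak number, against 0.328% of all windows called in either direction, and 0 with the highest fold in place of the covered percent, against 1.46%.

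Against brain, E12 heart had 1 member called lower, against 1.67% of all windows, and none higher, against 0.18%. Hoxb9 was covered to 4.79%, 6.17%, 0% and 4.45% in heart and to 8.49%, 9.95% and 9.98% in brain, a difference of -5.62 ± 1.53 percentage points (SE; limma adjusted p = 0.013). No member was called without heart library 3 or brain library 3, and 4 were called without heart 2 or heart 4. None was called with libraries scaled to equal mean coverage, with lists cut to equal peak number or with the highest fold. More were called over the gene bodies alone and with a replicate block.

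In brain endothelium, Hox coverage present at E12 was mostly gone at P6. Hoxd8 was covered to 12.5%, 15.5% and 14.9% in E12 brain and was at 0% in all 3 P6 brain libraries. Hoxa5 was covered to 12.1%, 10.9% and 15.8% at E12 and to 0%, 0% and 1.84% at P6. In both genes all E12 values lay above all P6 values.

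Of the 39 members, 26 were lower in P6 than E12 brain endothelium, against 13.9% of all windows, and none was higher, against 0.0139%. The median difference was -5.90 percentage points for the members and -1.85 for all windows. Hoxd8 differed by -14.3 ± 2.48 (limma adjusted p = 5.75e-05) and Hoxa6 by -13.7 ± 2.33 (adjusted p = 4.38e-05). Hoxb9 differed by -8.99 ± 1.63 (limma adjusted p = 9.12e-05) and Hoxc9 by -6.98 ± 1.52 (adjusted p = 0.000578). With the libraries scaled to equal mean coverage 5 members were called lower, against 1.14% of all windows called in either direction, and with every list cut to equal peak number none was, against 1.47%. P6 brain library 3, the only one of the 3 with the name ending of the E12 brain libraries, had Hoxd8 at 0% and Hoxa5 at 1.84%.

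In heart endothelium, by contrast, no member was called between P6 and E12 by limma, with 5 higher and 6 lower at an unadjusted p under 0.05. Of all windows 0.227% were higher and 0.809% lower. Hoxa5 was covered to 7.00%, 7.75%, 3.25% and 12.4% in E12 heart and to 12% and 14.8% in P6 heart. Without E12 heart library 3, 4 members were called. The most 5′ Hoxa gene went the other way: Hoxa13 was covered to 7.38%, 5.96%, 0% and 7.16% at E12 and was at 0% in both P6 heart libraries (limma adjusted p = 0.0543).

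The change from E12 to P6 was tested for a difference between brain and heart. It was less negative in brain for no member, against 0.0416% of all windows, and more negative for 11, against 6.33%, with Hoxa5 at -18.1 ± 3.01 percentage points (SE; limma adjusted p = 0.000168) and Hoxa6 at -17.8 ± 3.40 (adjusted p = 0.000847). In the other clusters the largest were Hoxd9 at -12.8 ± 3.62 (limma adjusted p = 0.0197) and Hoxb4 at -11.5 ± 2.65 (adjusted p = 0.00483). Without P6 heart library 2 the count was 7, and with lists cut to equal peak number it was 0, against 1.56% of all windows called in either direction.

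From P6 to the adult, over the same 6 organs, no member was called (limma), although 23 were lower at an unadjusted p under 0.05 and 0% of all windows were called higher and 1.3% lower. Hoxb4 had the smallest adjusted p at 0.00029, with means of 2.91% in the adult and 7.37% at P6. Its difference of -4.47 ± 0.885 percentage points stayed under the 5-point minimum. The median difference was -2.07 for the members and -0.861 for all windows. Over the gene bodies alone 8 members were called lower, against 4.03% of all windows called in either direction. With log2 of 1 plus the highest fold in the window in place of covered percent 21 were called lower, against 18.1% (limma).

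At E12 the endothelium was compared with input over brain, heart and trunk, with 1 input library each. Hoxb9 was higher in endothelium (8.49% against 3.05%, a difference of 5.44 ± 1.30 percentage points, limma adjusted p = 0.0018), where 0.522% of all windows were called higher. Hoxc12 was lower (3.71% against 10.2%, a difference of -6.52 ± 1.45, limma adjusted p = 0.00082), where 1.25% were lower. Scaled to equal mean coverage, or with lists cut to equal peak number, no member was called.

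Genes that work with or upstream of the Hox genes gave 0 calls between trunk and head organs at P6 and in the adult (limma). Of all windows 0.282% were called higher and 0.55% lower at P6, and 0.074% and 0.763% in the adult, so counts of 0 in lists this short lie near the background and do not show that these genes were alike. The lists were 9 TALE cofactors (the Meis and Pbx family), 9 upstream regulators, 9 retinoic acid genes, 16 Polycomb and Trithorax genes and 9 neighbours of the clusters. Of 16 head and forebrain factors, 7 were called lower in P6 trunk than head endothelium, beside the 0.55% of all windows, among them Zic2 (1.87% against 14.2%) and Zic1 (1.15% against 8.51%), and 3 in the adult, beside 0.763%, Zic2 and Rax among them. The called ones differed in the direction opposite to Hoxa and Hoxb, and the other 9 and 13 were not called. From E12 to P6 in brain, 13 of the 16 head factors were lower, and so were 4 of 9 upstream regulators, 4 of 9 retinoic acid genes, 2 of 9 TALE cofactors, 2 of 16 Polycomb and Trithorax genes, 2 of 9 neighbours and 7 of 18 endothelial genes, beside the 13.9% of all windows.

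Among the 5 protein-coding genes outside the clusters whose group means followed the mean of the 39 members most closely over the 15 endothelial groups were Sgk2 (Pearson r = 0.937), Ncf1 (0.935), Ssu2 (0.935) and Acy3 (0.930). The groups share the lower coverage at later ages, so the likeness is given as a description.

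Single-cell RNA from brain gave a separate view, with 1 library per age and no test between ages. Cells were grouped without the Hox genes, and endothelial-like groups were named by their markers. In the library labelled E9.5 brain, 8161 endothelial-like cells held 8374 Hox UMIs, 174 CPM (UMI counts scaled by total UMIs; 95% Poisson interval 170 to 178). At E12.5 5661 cells held 1950, or 27.8 CPM (26.6 to 29.1). In cortex 4404 cells at P8 held 70, or 1.31 CPM (1.02 to 1.66), and 2796 adult cells held 36, or 1.96 CPM (1.37 to 2.72). The intervals cover counting error only. Endothelial-like cells were not the class with the highest Hox level. At E9.5 mesenchymal cells stood at 502 CPM and epithelial cells at 390. At E12.5 neural cells stood at 266 CPM, mesenchymal cells at 87.5 and mural cells at 39.7. Red blood cells and macrophages were lower at both ages. The Hox CPM was thus far higher in the embryonic libraries, and tissue (brain or cortex) and age cannot be told apart.

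The E9.5 library held cells that its brain label does not lead one to look for. Groups led by heart muscle genes (Myl7, Actc1, Ttn), by Ttr, Afp and Apoa1, and by Dppa3 and Pou5f1 were present, and its endothelial-like groups ranged from 128 to 218 Hox CPM. The E9.5 values therefore describe the library as labelled and not a brain region.

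The share of endothelial-like cells with at least 1 Hox UMI was 43.2% at E9.5, 19.6% at E12.5, 1.27% at P8 and 0.858% in the adult. Thinned to 1000 UMIs per cell the shares were 14.5%, 2.44%, 0.160% and 0.108%. Median depth per cell was 4658 UMIs at E9.5, 10116 at E12.5, 7882 at P8 and 4727 in the adult. Red blood cells of the same libraries, used here to show the level that free RNA could give, had median depths of 3904, 9504, 12793 and 10098 UMIs. Their level was 75.4 CPM at E9.5, 9.31 at E12.5 and 1.16 (0.315 to 2.96) at P8. At P8 the share of red blood cells with a Hox UMI was also 1.27%, from 3 of 236 cells (exact Clopper-Pearson 95% interval 0.263% to 3.67%) of greater depth, so the P8 endothelial share as a whole was not above that of red blood cells. In the earlier libraries the red blood cell shares were 19.2% and 7.69% (5.71% and 0.265% thinned), below the endothelial ones. In the adult 0 of 66 red blood cells had one, which allows up to 5.44% (exact Clopper-Pearson 95% interval).

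The clusters contributed unequally in the embryonic libraries. In E9.5 endothelial-like cells Hoxa had 2551 UMIs (53.0 CPM), Hoxb 4768 (99.1 CPM), Hoxc 428 (8.89 CPM) and Hoxd 627 (13 CPM). In E9.5 red blood cells the levels were 19, 43.8, 7.91 and 4.75 CPM. In E9.5 cells with macrophage or microglia markers they were 8.68, 19.9, 2.11 and 4.93 CPM. The E9.5 endothelial-like Hoxc level was thus close to that of red blood cells and above that of macrophages. No change of Hoxc with age is read from it. At E12.5 the endothelial-like cells had 474 (6.76 CPM), 885 (12.6 CPM), 1 and 590 (8.41 CPM), against 2.22, 4.43, 0 and 2.66 CPM in red blood cells. Hoxb4 led at both ages, with 1269 UMIs (26.4 CPM) and 435 (6.20 CPM). Hoxb8 (1077 UMIs), Hoxa7 (654) and Hoxa9 (621) were frequent at E9.5, and Hoxa7 had 3 UMIs and Hoxa9 had 7 at E12.5. Hoxd8 (220) and Hoxd4 (200) came next to Hoxb4 at E12.5, with part of both from the group led by Ccl21a and Prox1 described below. Of the 39 members 37 were detected in these cells at E9.5, 25 at E12.5, 9 at P8 and 7 in the adult. No Hoxa or Hoxc UMI was found in endothelial-like cells of either postnatal library.

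**Figure D4:**
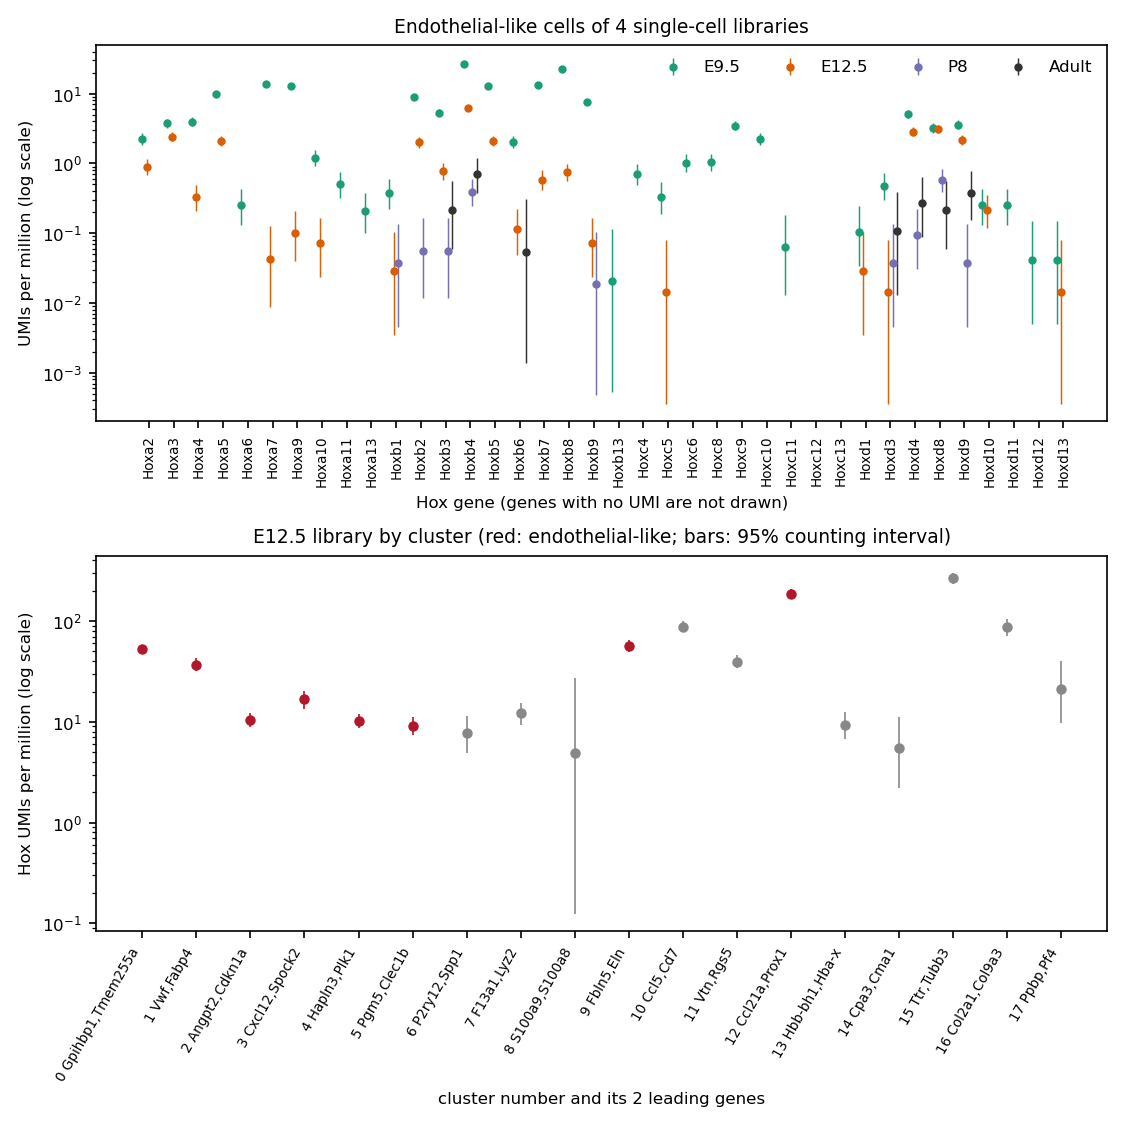
The upper panel gives the CPM of 38 of the 39 Hox genes in endothelial-like cells of the 4 single-cell libraries, and the lower panel Hox CPM in each cluster of the E12.5 library with 95% counting intervals, both on logarithmic axes. The E12.5 endothelial-like cluster led by Ccl21a and Prox1 stands at 187, and the other endothelial-like clusters lie between 9.20 and 56.5.

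Within the E12.5 endothelial-like cells 1 group stood apart. It held 106 cells led by Ccl21a, Prox1, Pdpn and Reln, of which Prox1 and Pdpn are known from lymphatic endothelium. These cells had 284 Hox UMIs, 187 CPM (166 to 210), and 81.1% of them had at least 1, mainly Hoxd9 (114), Hoxd4 (72) and Hoxd8 (47). These Hoxd UMIs are part of the 590 of all 5661 E12.5 endothelial-like cells, so a sizeable part of that Hoxd level comes from few cells. A group led by Fbln5, Eln and Gja5, genes of large arteries, had 56.5 CPM, and the others ran from 9.20 to 53.3, the lowest next to red blood cells at 9.31.

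After birth Hox UMIs were few. Hoxd8 (31) and Hoxb4 (21) led at P8, and Hoxb4 (13) and Hoxd9 (7) in the adult. Part of them lay in groups with Fbln5 among their leading genes. At P8, 271 cells led by Gkn3, Fbln5 and Bmx held 23 of the 70 UMIs, 6.24 CPM (3.95 to 9.36), with 12 from Hoxd8. In the adult, 167 cells led by Cytl1, Fbln5 and Eln held 14 of 36, 6.27 CPM (3.43 to 10.52), with 6 from Hoxd9 and 4 from Hoxd4. An adult group led by Ccl21a, Lrg1 and Slc38a5 held 13, of which 7 were Hoxb4. The P8 interval lies above that of P8 red blood cells, but it covers counting error only and the group was named after its values were seen. The interval of the adult group led by Cytl1 overlaps that of adult red blood cells, which reaches 4.96 CPM. The ATAC-seq brain endothelial libraries of P6 and the adult had Hoxd8 at 0% in every library. Groups of blood cells also carried Hox RNA: an unnamed E12.5 group led by Ccl5 and Cd7 had 88.2 CPM, of which Hoxa7 (117 UMIs) and Hoxa9 (109) were most, and an adult group led by S100a9 and Cd79a had 34.7.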

How the data were processed

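The members and gene lists were chosen with earlier results of these data known. Reads were aligned with Bowtie2 and handled with SAMtools 1.13 and Picard on mm10, per the submitters' processing notes. Broad peaks were called by the authors in each library apart with MACS2 2.1.2, without a control, with a shift of -100, an extension of 200, a q of 0.05 (broad 0.1) and at most 1 tag per position, per the file headers. Duplicates and Tn5 cuts were thus handled before deposit. In the deposited peak lists the signal is the pileup, the ratio is fold enrichment, and significance is given as -log10 of p and q. The list lengths and positions were used here, with fold and -log10 q in alternatives. The single-cell matrices hold counts of UMIs, deposited as made by Cell Ranger 4.0.0 per the file headers.

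From these files the covered percent of each window was computed and tested with limma 3.58.1 (R 4.3.3; trend, empirical Bayes, 1 mean per group over 66 libraries, Benjamini-Hochberg over 21631 windows, called at adjusted p under 0.05 and at least 5 percentage points), after tests on simulated data. Organs had equal weight in a mean over organs. Cluster values were tested by exact two-sided permutation of single libraries, without regard to organ, with adjustment over 16 tests (scipy 1.17.1). Members given in full are, in each comparison and cluster, the called member with the largest difference, and the most 3′ and 5′ member. One Hoxa member and 2 genes outside the clusters stay in all tests and counts but are not reported here. Others were named after their values were seen. Liver, kidney and retina against input were added after seeing the data.

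Cells with at least 500 genes and under 20% mitochondrial UMIs were kept (14632 of 17176, 8201 of 8310, 5712 of 7305 and 3877 of 5552 in age order). Libraries shared at most 0.558% of barcodes, and doublets were not removed. Clusters came from scanpy 1.11.5 (2000 variable genes, 30 components, 15 neighbours, Leiden resolution 0.5), and the naming rules were written after the clusters were seen. The RNA-seq libraries and the E16.5 single-cell library were not used here. Alternatives were other peak cutoffs, windows, scalings, library subsets and a replicate block.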

Additional observations from a re-analysis of the deposited data

Results flagged for a closer look

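Library 3 of E12 heart endothelium lay far from the other 3 for the Hoxa cluster. It was covered to 2.52%, against 5.84% for the nearest and 6.19% for the highest library, a gap of 0.903 of the group's range (8 sets of values were examined, 2 groups of 4 libraries for each of 4 clusters, and chance flags about 1 set in 20). That list held 39096 peaks against 101219 to 120456 in the others.

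The difference between P6 and E12 was more negative in brain than in heart endothelium for 11 members by the limma interaction test, of which 10 are given. Of all windows 6.33% were called in that direction. In Hoxa, the values were -18.1 percentage points for Hoxa5, -17.8 for Hoxa6, -12.1 for Hoxa2 and -9.52 for Hoxa3. In Hoxb, they were -11.5 for Hoxb4, -11.1 for Hoxb8, -10.6 for Hoxb9 and -8.36 for Hoxb3. In Hoxd, they were -12.8 for Hoxd9 and -11.5 for Hoxd8. No Hoxc member was called. Without E12 heart 3 and P6 brain 1, the short lists, 6 members were called, and with equal numbers of peaks none was. The part of list length in the difference was not tested further.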

How the results depend on the processing

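No called value changed sign. Of the cluster differences that were not called, Hoxd at P6 (0.168) was -1.36 within 1 alignment name ending, and Hoxc was 0.0309 at P6 and 0.0399 in the adult when scaled and 0.00517 in the adult with equal peak numbers, against -0.147 and -0.0303. With single libraries left out, Hoxc and Hoxd at P6 and Hoxd for E12 trunk minus brain also changed sign. Members called under each setting are given where they left the range of 1.5 times the reported count. The counts in this section stand without the share of all windows called, which is beside many of them where they were given earlier. They describe how the calls moved and are not read as results about the Hox genes. With every list cut to its 19464 peaks of highest -log10 p, the P6 trunk minus head difference was 2.06 for Hoxa and 0.384 for Hoxb, and the calls were 2 for E12 trunk against brain, 0 for E12 heart against brain, 2 for E12 trunk against heart, 2 for P6 trunk against head, 0 for P6 against E12 brain, 0 for E12 endothelium against input, 3 for P6 liver and 1 for P6 kidney against input, and 0 for the brain and heart interaction. With libraries of 1 name ending the P6 differences were 4.73 (Hoxa) and 3.89 (Hoxb), and the adult calls, for lung against retina, 0. Scaled to equal mean coverage, the adult Hoxa difference was 5.07 (adjusted p = 0.0431 by exact permutation), and the calls were 0 for E12 heart against brain, 5 for E12 trunk against heart, 9 for adult trunk against head, 9 for P6 and 8 for adult kidney against other trunk organs, 5 for P6 against E12 brain, 2 for P6 against E12 heart, 0 for E12 endothelium against input, 10 for P6 liver, 10 for adult liver and 1 for adult kidney against input.

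At a -log10 q of at least 5, the calls were 3 for E12 trunk against heart, 6 for P6 and 1 for adult trunk against head, 7 for P6 against E12 brain, 1 for P6 against E12 heart, 0 for P6 and 1 for adult liver against input, and 6 for the brain and heart interaction. With the gene body alone they were 4, 5 and 7 for the E12 trunk against brain, heart against brain and trunk against heart comparisons, 1 for adult trunk against head, 8 for adult against P6, 2 for P6 and 6 for E12 endothelium against input, and 1 for the trunk, head and age interaction. With log2 of 1 plus the highest fold they were 0 for E12 heart against brain, 0 for E12 trunk against heart, 10 for adult trunk against head, 0 for P6 and 3 for adult kidney, 21 for adult against P6, 14 for P6 against E12 brain, 3 for adult, 3 for P6 and 1 for E12 endothelium against input, 2 for P6 liver, 1 for P6 kidney and 1 for adult kidney against input. With windows of genes up to 20 kb, P6 liver against input gave 0. As given above, the highest fold called a large share of all windows for adult against P6 and for P6 and adult endothelium against input. The cause of these moves was not tested.

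Deviations of same-numbered libraries from their group means had a mean r of 0.0493 over 231 pairs, against -0.0298 over 400 pairs of different number. The pairs pool all organs and both kinds of library at an age. They therefore cannot show whether endothelial and input libraries of the same organ and number share animals or preparations. With the replicate block the calls were 4 for E12 heart against brain, 1 for P6 kidney, 1 for P6 against E12 heart and 0 for P6 liver against input. Without both short lists, a setting added after seeing the data, they were 0 for E12 heart against brain, 4 for E12 trunk against heart, 5 for P6 against E12 heart and 6 for the brain and heart interaction. Kidney against liver alone gave 3 at P6.

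With each library left out in turn the calls ranged from 10 to 12 for P6 and 2 to 3 for adult trunk against head, 22 to 25 for P6 against E12 brain, 0 to 4 for P6 against E12 heart, 0 to 1 for E12 trunk against brain, 0 to 4 for heart against brain, 4 to 13 for trunk against heart, 0 to 3 for adult against P6, 0 to 4 for P6 kidney, 7 to 14 for the brain and heart and 0 to 1 for the trunk, head and age interaction, 0 to 4 (P6) and 1 to 4 (adult) for liver, 0 to 1 (P6) and 0 to 4 (adult) for kidney and 0 to 0 for retina against input, 2 to 2 for E12 and 0 to 0 for P6 and adult endothelium against input. The Hoxa and Hoxb differences ranged from 3.94 to 4.57 and 2.99 to 3.51 at P6, 2.24 to 3.05 and 0.805 to 1.14 in the adult, 2.27 to 5.16 and 3.19 to 5.07 for E12 trunk minus heart, and 0.115 to 3.01 and 1.47 to 3.35 for E12 trunk minus brain. The Hoxc and Hoxd differences ranged from -0.315 to 0.00962 and -0.425 to 0.566 at P6, -0.110 to -0.00215 and 0.420 to 0.771 in the adult, 1.51 to 2.75 and 1.99 to 4.90 for E12 trunk minus heart, and 0.291 to 1.33 and -0.197 to 1.40 for E12 trunk minus brain.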
